A study of Homo sapiens with 24 samples.

Results

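The genes described here encode the proteins of the cytosolic ribosome. The rule that defines them uses names and annotation, and takes the protein coding genes of the count table whose symbol is RPS or RPL with a number and at most a short ending, together with RPLP0, RPLP1 and RPLP2. This rule found 85 of the 58735 genes in the table, 33 of the small subunit and 52 of the large subunit. Of these, 2 lie on chromosome Y and are counted without a level, so levels are given for 83. RPSA, FAU, RACK1 and RPL36AL, among others, also belong to the cytosolic ribosome or bind it, but their names fall outside the rule.

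The RNA came from OCI-Ly18 and SU-DHL-4, established human lines of diffuse large B cell lymphoma that carry GFP and grow in RPMI with serum. Each line formed 4 groups of 3 libraries, 24 libraries in all. They were tazemetostat with CART19 cells (TAZ CART19), DMSO with CART19 cells (DMSO CART19), tazemetostat with UTD cells (TAZ UTD) and DMSO with UTD cells (DMSO UTD). Tazemetostat inhibits the histone methyltransferase EZH2, was used at 500 nM, and DMSO is its vehicle. Drug or vehicle was present for 72 h before T cells were added and for the 48 h of co-culture. CART19 cells are T cells with a chimeric antigen receptor that directs them to B cells, and UTD, the control cells, is not spelled out in the labels. All groups therefore held added T cells, and viable GFP-positive cells were sorted from each culture. Each line is 1 model, and the labels do not say whether replicates were grown as separate cultures, so p-values measure the spread between libraries, which may be technical.

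A cytosolic ribosome holds 1 copy of most ribosomal proteins, so cells keep the mRNAs of this family at high and matched levels. Many of these mRNAs start with a cytidine followed by a run of pyrimidines, the terminal oligopyrimidine or TOP motif, through which mTORC1 and LARP1 control their translation. When ribosome assembly is disturbed, free RPL5 and RPL11 bind MDM2 and stabilise p53, and inherited loss of 1 copy of several members, RPS19 among them, causes Diamond-Blackfan anaemia. B cells need large amounts of ribosomal protein during germinal centre growth.

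The start sequences of members on which the results below turn show this family feature and cases without it at the annotated start. Start sites were found for 66 of the 83 members in the RefSeq table of GRCh38.p14. Of these, 42 (63.6%) had the motif at the annotated start, read as C followed by at least 4 pyrimidines on the gene's own strand. It stood at 4.04% of all 27305 starts in the same table and at 7.25% of the 69 starts of mitochondrial ribosomal proteins. With a start shifted by up to 5 bases allowed, the shares were 75.8% of members and 21.1% of all starts. Each sequence runs from 15 bases before the start to 15 bases from it, 5′ to 3′, and capitals mark the pyrimidine run that begins at the start.
RPS19: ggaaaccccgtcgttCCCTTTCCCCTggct
RPS21: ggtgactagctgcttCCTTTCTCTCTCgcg
RPS16: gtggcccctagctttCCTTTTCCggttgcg
RPLP2: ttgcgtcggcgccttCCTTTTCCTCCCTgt
RPS6: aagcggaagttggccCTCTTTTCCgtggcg
RPL22: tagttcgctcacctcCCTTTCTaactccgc
RPL22L1: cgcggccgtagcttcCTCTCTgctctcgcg
RPS15: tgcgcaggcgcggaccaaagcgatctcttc
RPS28: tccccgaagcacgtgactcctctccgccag
RPS4X: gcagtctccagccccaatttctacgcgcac

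The RPS19, RPS21, RPLP2, RPS15 and RPS28 windows lie on the plus strand at chr19:41860240-41860269, chr20:62387088-62387117, chr11:809952-809981, chr19:1438381-1438410 and chr19:8321481-8321510. Those of RPS16, RPS6, RPL22, RPL22L1 and RPS4X lie on the minus strand at chr19:39435935-39435964, chr9:19380222-19380251, chr1:6199581-6199610, chr3:170870181-170870210 and chrX:72277234-72277263. RPS15, RPS28 and RPS4X had no such run at the annotated start, which says only that these letters are not at that position. In RPS28 such a run begins at the next base. The 7-base motif CCGGAAG was searched on both strands from 250 bases before to 50 bases after the start. It was in 34.8% of members, in 42.0% of the 69 mitochondrial ribosomal protein genes and in 10.7% of all promoters, so it is not particular to the members.

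Libraries held 14783781 to 20148891 counts. Levels are counts per 1000000 counts of the library (CPM), and the members together took 8.35% of all counts. A mean of at least 1000 CPM was reached by 39 members, 34 lay between 100 and 1000 CPM and 10 below 100 CPM, of which 2 were below 1 CPM. Those 2 were the muscle paralogue RPL3L, with a mean of 0.249 CPM, and the testis paralogue RPL10L, with 0 counts, where 3 counts over all libraries would be 0.0074 CPM. After the filter on low counts, 81 members were tested in OCI-Ly18 and 82 in SU-DHL-4 and in the fit of both lines.

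Per kilobase of the gene's summed exons, the highest mean levels were those of RPS12 with 1414, RPL13A with 1319, RPS6 with 1268, RPL41 with 1156 and RPS2 with 1130 CPM per kb. The lowest were those of RPS27L with 3.85, RPL36A with 3.05, RPS10 with 2.33, RPL3L with 0.0902 and RPL10L with 0 CPM per kb. The order depended on the length used: per kilobase of the principal transcript RPS2 came first with 2769 and RPL13A second with 2645 CPM per kb. RPS10, at 5.50 CPM before scaling by length, overlaps the readthrough gene RPS10-NUDT3 and has pseudogenes that took 52.0% of the counts of the gene and its copies, so its low level is uncertain. RPL36A overlaps the readthrough gene RPL36A-HNRNPH2, so its low level is uncertain as well.

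Over the 78 members at 20 CPM or more, the median coefficient of variation (CV) of 3 replicates was 5.52%, against 5.55% for all 7428 genes from 20 CPM up. The 2 sets are not matched for level, as 39 members reached 1000 CPM, and counting noise is larger at low levels. In edgeR's fits the biological coefficient of variation, which leaves counting noise out, had a member median of 0.0677 in OCI-Ly18 and 0.0488 in SU-DHL-4. The common value over all genes was 0.0855 and 0.0729. That is a single pooled estimate and not a median of genes, and it is not matched for level, so it is no like-for-like comparison. By CV, members ranked as follows. RPS16 (1.38%), RPL15 (1.60%) and RPL10 (1.93%) varied least. RPL39 (20.1%), which lines the exit tunnel, RPL26 (18.9%) and RPL41 (18.4%), the shortest protein of the family, varied most. Members were least alike in RPL7L1, a nucleolar relative of RPL7, whose CPM had a correlation of -0.50 with the summed other members over the 24 libraries, in RPS6 (-0.21) and in RPS10 (-0.18). Within SU-DHL-4 and within OCI-Ly18, 12 libraries each, the correlation of RPS6 was 0.87 and 0.84, so the pooled value came from its difference between the lines. All libraries share the CPM scale, which ties the values to each other.

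The summed level of the members was highest in SU-DHL-4 TAZ CART19. It was 85644, 96534 and 89004 CPM there, 81898 to 82338 CPM in DMSO CART19, 80633 to 82763 CPM in TAZ UTD and 75013 to 82958 CPM in DMSO UTD. On the CPM scale every TAZ CART19 library of SU-DHL-4 thus lay above every other library of that line. With TMM effective library sizes the DMSO CART19 mean of that line moved up by more than the SD of its replicates, as given below. The order of single libraries on that scale is not given here. In OCI-Ly18 the groups overlapped, at 79827 to 92979 CPM in TAZ CART19, 77880 to 82749 CPM in DMSO CART19, 83833 to 91060 CPM in TAZ UTD and 78944 to 85239 CPM in DMSO UTD. The 13 mRNAs of the mitochondrial genome, summed as a sign of RNA quality, were also spread widely in SU-DHL-4 TAZ CART19, at 79671, 66653 and 75131 CPM, and the library highest in ribosomal protein mRNA was the lowest in these. The part of library quality in the results was not tested.

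**Figure D1:**
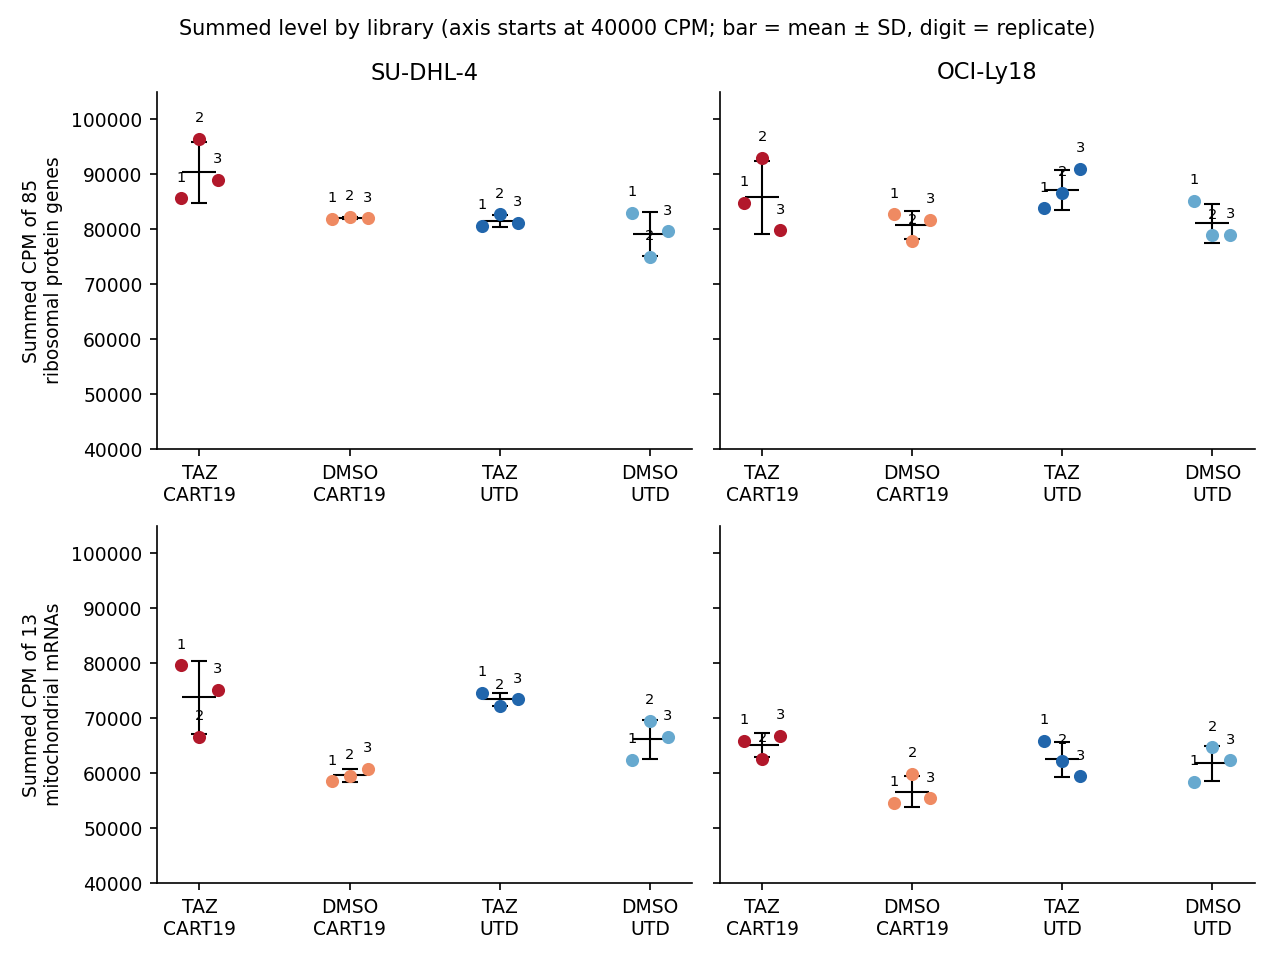
Summed CPM of the ribosomal protein genes (top) and of the 13 mitochondrial mRNAs (bottom) in each library, by group, for SU-DHL-4 and OCI-Ly18, with the group mean; the axes do not start at 0. The 3 SU-DHL-4 TAZ CART19 libraries sit at 85644 to 96534 CPM in the top panel, above the other SU-DHL-4 libraries.

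The 8 B cell markers checked were at 1 CPM or more in every group. The 12 T cell markers summed to 25.4 to 26.2 CPM in SU-DHL-4 TAZ CART19, 41.7 to 44.6 CPM in DMSO CART19, 27.3 to 29.1 CPM in TAZ UTD and 42.7 to 43.2 CPM in DMSO UTD, with TRAC the leading gene. In OCI-Ly18 they summed to 80.1 to 88.3, 80.2 to 85.8, 104 to 111 and 91.3 to 98.5 CPM in the same order of groups, led by TRBC2. Of the 12, 3 to 9 were at 0 in a group, CD7 in all of them. IFNG and GZMB, made by activated T cells, rose in SU-DHL-4 with CART19 over UTD cells under tazemetostat. Of the 4 T cell markers tested there, 1 fell, and of all genes 6.66% rose and 7.86% fell. GZMB was at 0 in both UTD groups of that line and IFNG in DMSO UTD. GZMB could thus pass the filter on low counts only through the CART19 groups, so its rise is not a separate result. In SU-DHL-4 TAZ CART19, IFNG and GZMB each lay below CD3E, which was at 3.18 CPM. TRAC was at 24.5 CPM in TAZ UTD and 19.96 CPM in TAZ CART19 of that line. CD3D, CD3G and CD2 were at 0 in SU-DHL-4 DMSO UTD and in OCI-Ly18 DMSO UTD and TAZ UTD. In SU-DHL-4 TAZ UTD only CD2 of these was at 0. The sums, led by TRAC or TRBC2, therefore cannot be read as T cell content. The part of T cell RNA in the results was not tested. In bulk RNA fewer cells of a type and less RNA per cell cannot be told apart.

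In SU-DHL-4 under tazemetostat, CART19 cells were set against UTD cells. With CART19 cells 46 of 82 members were higher and 1 was lower, 56.1% and 1.22% of them, where 6.66% and 7.86% of all genes were called. Here and below a call is an adjusted p under 0.05 in edgeR's quasi-likelihood test, adjusted by Benjamini-Hochberg over all genes tested. The changes were small: the members' median log2 fold change was 0.17, against -0.01 for all genes. All 3 TAZ CART19 libraries lay above all 3 TAZ UTD libraries for 47 members (57.3%), where the same held for 11.9% of all genes. The rise covered both subunits, with 20 of 32 small and 26 of 50 large subunit members higher and medians of 0.20 and 0.16.

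RPS15, a protein of the small subunit head, led the increases. It was at 1328, 1142 and 1258 CPM in TAZ CART19 and 943, 907 and 900.3 CPM in TAZ UTD (log2 fold change 0.46, SE 0.05, adjusted p = 2.29e-09). RPS21, which also sits in the small subunit, was at 449.8, 483 and 464 CPM in TAZ CART19 and 339, 357 and 346 CPM in TAZ UTD (log2 fold change 0.44, SE 0.06, adjusted p = 3.8e-06). In both genes the groups stood well apart.

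RPS19, the member most often mutated in Diamond-Blackfan anaemia, was at 1420.3, 1497 and 1553 CPM in TAZ CART19 and 1192, 1130.4 and 1124 CPM in TAZ UTD (log2 fold change 0.39, SE 0.04, adjusted p = 2.23e-10). RPLP2, a stalk protein that recruits translation factors, was at 1097, 1196 and 1051 CPM in TAZ CART19 and 842, 891 and 851 CPM in TAZ UTD (log2 fold change 0.39, SE 0.06, adjusted p = 2.28e-05). Its stalk partner RPLP1 rose by 0.27 on the log2 scale, while RPLP0, the base of the stalk, was not called (log2 fold change 0.07). RPS16, a small subunit protein near the decoding centre with the lowest CV of the family, was at 1449, 1473 and 1473 CPM in TAZ CART19 against 1153, 1156 and 1183 CPM in TAZ UTD (log2 fold change 0.35, SE 0.04, adjusted p = 7.82e-10). RPL38, which in mice acts on the translation of Hox mRNAs, rose by 0.38, RPS26, at the mRNA exit, by 0.33 and RPS28, its neighbour there, by 0.38 on the log2 scale. RPS28 shares reads with a pseudogene, and its values with that copy counted are given with the comparison of the lines.

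The single decrease was RPL7L1 (log2 fold change -0.14, adjusted p = 0.0312), and its call was lost under several alternatives and when any 1 of 8 libraries was left out (each TAZ UTD and DMSO CART19 library and TAZ CART19 replicates 1 and 2), which left 0 decreases. The number of increases was 36 to 48 under the alternatives and 40 to 53 with 1 library left out. Of the 46 called members outside chromosome Y, 29 kept their call in every alternative and every left-out library. Without TAZ CART19 replicate 2, the library with the highest sum, 43 members were higher and the median was 0.15. By length, the 39 below the median length of 3056 bases had a median of 0.21 and the 39 above it 0.16, with a correlation of -0.19 between log2 fold change and log2 length across these 78 members, which are not independent.

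**Figure D2:**
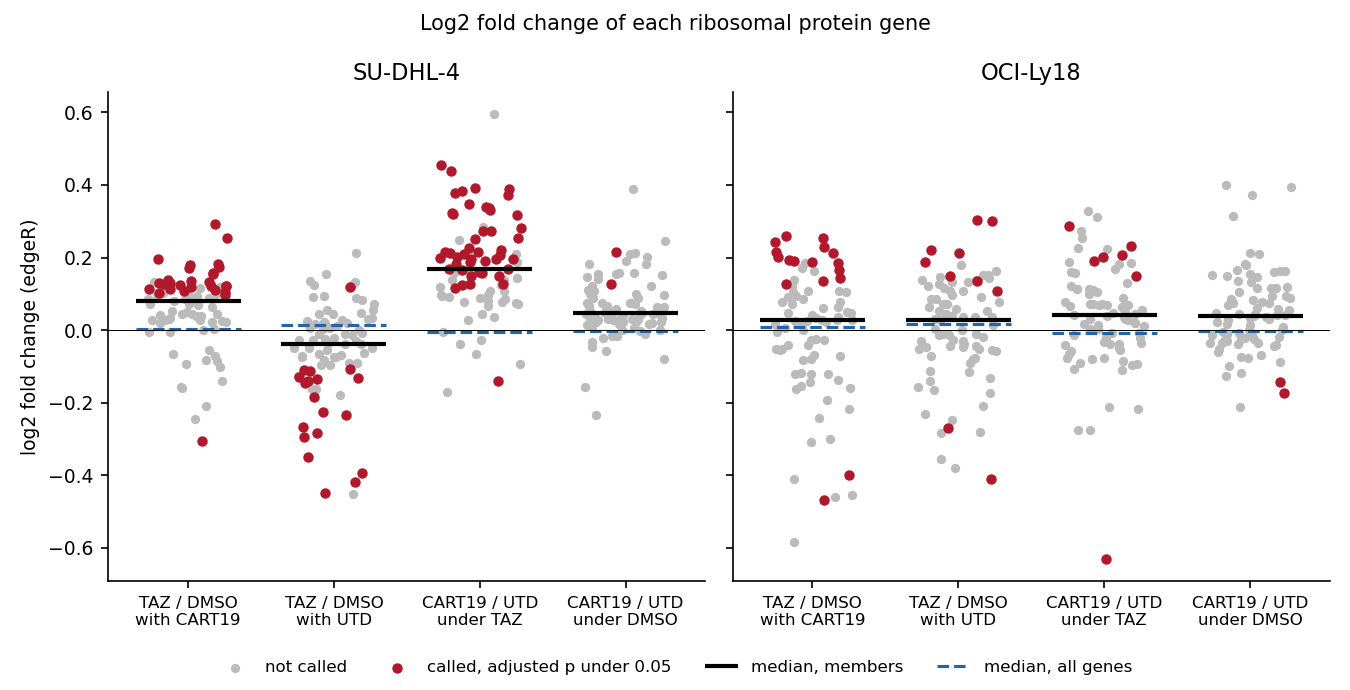
Log2 fold change of each ribosomal protein gene in 4 comparisons in SU-DHL-4 and in OCI-Ly18; red points were called (adjusted p under 0.05), grey points were not, and bars mark medians. In SU-DHL-4 the points for CART19 over UTD under tazemetostat sit mostly above 0, with a median of 0.17.

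With DMSO in place of tazemetostat, the same contrast of CART19 over UTD cells in SU-DHL-4 called 2 members higher and 0 lower, where 4.62% and 3.18% of all genes were called. They were RPL30 (log2 fold change 0.21, adjusted p = 0.0192) and RPS19 (0.13, adjusted p = 0.0439), and each call was lost in 10 or more alternatives or left-out libraries. With 1 library left out the count ran from 0 to 6, with 0 when any DMSO CART19 library or DMSO UTD replicate 2 or 3 was missing, 1 without TAZ UTD replicate 1 or 3, 4 without TAZ CART19 replicate 1 and 6 without TAZ CART19 replicate 2. Before adjustment 6 members were higher and 0 lower at p under 0.05, and DESeq2 called 1 higher and limma voom 3, with 0 lower in each.

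The interaction tests whether tazemetostat and CART19 cells act together other than by adding up: the tazemetostat effect with CART19 cells minus that with UTD cells, in log2. In SU-DHL-4 it was above 0 for 15 of 82 members (18.3%) and below 0 for 0, against 0.269% and 0.626% of all genes. Before adjustment 34 members were above and 0 below, and DESeq2 called 23 and 0, limma voom 17 and 0. Small subunit members made up 10 of the 15. The called members were RPS15, RPS21, RPS28, RPL22L1, RPS26, RPL38, RPS16, RPS13, RPS27, RPS19, RPL28, RPS3A, RPS4X, RPL23 and RPL4. Of these, RPS16 alone kept its call in every alternative and left-out library.

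RPS15 had the largest interaction (log2 fold change 0.49, SE 0.07, adjusted p = 3.14e-05). Its level was 1205, 1094 and 1101 CPM in DMSO CART19 and 1143, 1222 and 1123 CPM in DMSO UTD, so with DMSO the T cell groups overlapped, and the TAZ UTD libraries given above were the lowest of the line. RPS21 followed (log2 fold change 0.41, SE 0.08, adjusted p = 0.0143), then RPS28 (log2 fold change 0.38, SE 0.06, adjusted p = 0.000269) and RPL22L1 (log2 fold change 0.33, SE 0.07, adjusted p = 0.00851). These interactions rest on a fit of 1 line: in the fit of all 24 libraries 1 member was called, and the call of RPS15 was lost there and with trends for length and GC content removed. The number also fell to 7 without TAZ UTD replicate 2, and to 8 without TAZ UTD replicate 3, DMSO CART19 replicate 2 or TAZ CART19 replicate 3. Without TAZ CART19 replicate 2, 1 member was below 0.

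In OCI-Ly18 the interaction called 2 of 81 members, RPS4X (log2 fold change 0.30, SE 0.06, adjusted p = 0.0245) and RPS3A (log2 fold change 0.29, SE 0.06, adjusted p = 0.0245), against 0.334% of all genes above and 0.085% below 0. None was below 0 by edgeR, DESeq2 or limma voom, and 9 were above and 0 below before adjustment. Both are also among the 15 of SU-DHL-4. RPS4X is the X-linked form of a small subunit protein with a Y-linked copy, and RPS3A is a small subunit protein that binds initiation factors. RPS3A lost its call with trends for length and GC content removed and RPS4X without TAZ UTD replicate 1. Both calls were lost without DMSO CART19 replicate 1 or 3, DMSO UTD replicate 2 or 3, TAZ CART19 replicate 1 or TAZ UTD replicate 3, and the count of called members was 0 there, 1 without TAZ UTD replicate 1, 4 without DMSO UTD replicate 1, 5 without TAZ CART19 replicate 2 and 6 without TAZ CART19 replicate 3. Without TAZ CART19 replicate 2, 2 members were below 0.

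Tazemetostat was set against DMSO in SU-DHL-4 beside UTD and beside CART19 cells. Beside UTD cells 18 of 82 members were lower and 1 was higher, 22% and 1.22%, against 18.3% and 17.2% of all genes. The members' median log2 fold change was -0.04, against 0.01 for all genes. Among the called decreases, libraries of both groups overlapped for RPL4, RPL17, RPL24, RPL38, RPLP1, RPLP2, RPS4X, RPS13, RPS20 and RPS21. All 3 TAZ UTD libraries lay above all 3 DMSO UTD libraries for RPL3, RPL6, RPL7, RPL7A, RPL7L1, RPL11, RPL13, RPL15, RPL22, RPL28 and RPL32. The TAZ UTD libraries lay below for RPL22L1, RPL26L1, RPL39L, RPS15, RPS16, RPS19, RPS26 and RPS27L. Of all genes, 28.5% lay above and 16.5% below. The ranking of libraries and the fit are not on the same scale. RPL7L1 and RPL28, ranked above here, had log2 fold changes of -0.022 and 0.00075, so lying apart does not mean a change in the fit. Beside CART19 cells 28 members were higher and 1 was lower, 34.1% and 1.22%, against 16.1% and 18.7% of all genes, with a median of 0.08. All 3 TAZ CART19 libraries lay above all 3 DMSO CART19 libraries for 43 members (52.4%) and for 25.6% of all genes.

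RPS15 fell beside UTD cells, to the TAZ UTD levels above (log2 fold change -0.42, SE 0.05, adjusted p = 6.96e-09). RPL26L1, a close copy of RPL26, was at 27.6, 29.6 and 30.3 CPM in TAZ UTD and 35.4, 35.7 and 42.1 CPM in DMSO UTD (log2 fold change -0.45, SE 0.09, adjusted p = 0.000101), with the groups apart. It was also the decrease beside CART19 cells, at 32.2, 34.8 and 33.1 CPM in TAZ CART19 and 36.3, 40.6 and 41.3 CPM in DMSO CART19 (log2 fold change -0.31, SE 0.09, adjusted p = 0.00626). The call beside CART19 cells was lost without DMSO CART19 replicate 3, in the fit of all 24 libraries and with upper quartile scaling.

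RPS19 (log2 fold change -0.23, SE 0.04, adjusted p = 9.27e-06), RPS26 (log2 fold change -0.18, SE 0.04, adjusted p = 0.000192) and RPL22L1 (log2 fold change -0.28, SE 0.05, adjusted p = 1.05e-05) also fell beside UTD cells and, with RPS15 and RPL26L1, kept that call in every alternative and left-out library. RPL39L, the germ cell copy of RPL39, fell by 0.39 (adjusted p = 0.0245), a call lost with upper quartile scaling and without DMSO UTD replicate 1 or TAZ UTD replicate 2 or 3. RPS27L, a p53 target and copy of RPS27, was at 20.2, 25.7 and 24.1 CPM in TAZ UTD and 27.2, 26.8 and 30.7 CPM in DMSO UTD (log2 fold change -0.35, SE 0.10, adjusted p = 0.00594), a call lost without DMSO UTD replicate 3 or TAZ UTD replicate 1. RPL7A was the increase (0.12, adjusted p = 0.0226) and lost its call in 7 alternatives or left-out libraries.

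Beside CART19 cells RPS28 was highest in fold (log2 fold change 0.29, SE 0.04, adjusted p = 6.93e-07), at 641, 589.8 and 594 CPM in TAZ CART19 and 495, 459 and 470.4 CPM in DMSO CART19. RPL28, a large subunit protein, was at 1371, 1519 and 1394 CPM in TAZ CART19 and 1143, 1138 and 1152 CPM in DMSO CART19 (log2 fold change 0.26, SE 0.04, adjusted p = 1.9e-06). In both genes all libraries of one group lay above all of the other. RPS3A (log2 fold change 0.20, SE 0.04, adjusted p = 0.000302) and RPS27 (log2 fold change 0.18, SE 0.05, adjusted p = 0.00151) followed. Of the 28 called members outside chromosome Y, 2 kept their call in every alternative and left-out library, RPL28 and RPS28. RPS3A lost its call with the length trend and library means removed, and RPS27 there and with all 24 libraries in one fit.

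These 2 counts depend on the scale on which a library is measured. With upper quartile scaling, which moved the median of all genes to 0.09 in both comparisons, 6 members were higher and 7 lower beside UTD cells (median 0.04, so the sign of the median turned), and 43 were higher and 0 lower beside CART19 cells (median 0.16). With a length trend and each library's mean log value taken out, a setting added after seeing the data that moved the median of all genes to -0.15 and -0.13, 0 were higher and 56 lower beside UTD cells (median -0.18), and 2 were higher and 8 lower beside CART19 cells (median -0.06). Relative to all genes, the members' median was lower beside UTD cells and higher beside CART19 cells on each of the 3 scales. The 18 decreases beside UTD cells became 11 without TAZ UTD replicate 1, 10 without TAZ UTD replicate 3 and 8 in the fit of all 24 libraries. The 1 increase beside UTD cells became 0 without DMSO UTD replicate 2 or 3, TAZ UTD replicate 1 or 2 or DMSO CART19 replicate 1 or 2, and 2 without TAZ CART19 replicate 2. The 1 decrease beside CART19 cells became 0 without DMSO CART19 replicate 3 and 6 without TAZ CART19 replicate 2.

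**Figure D3:**
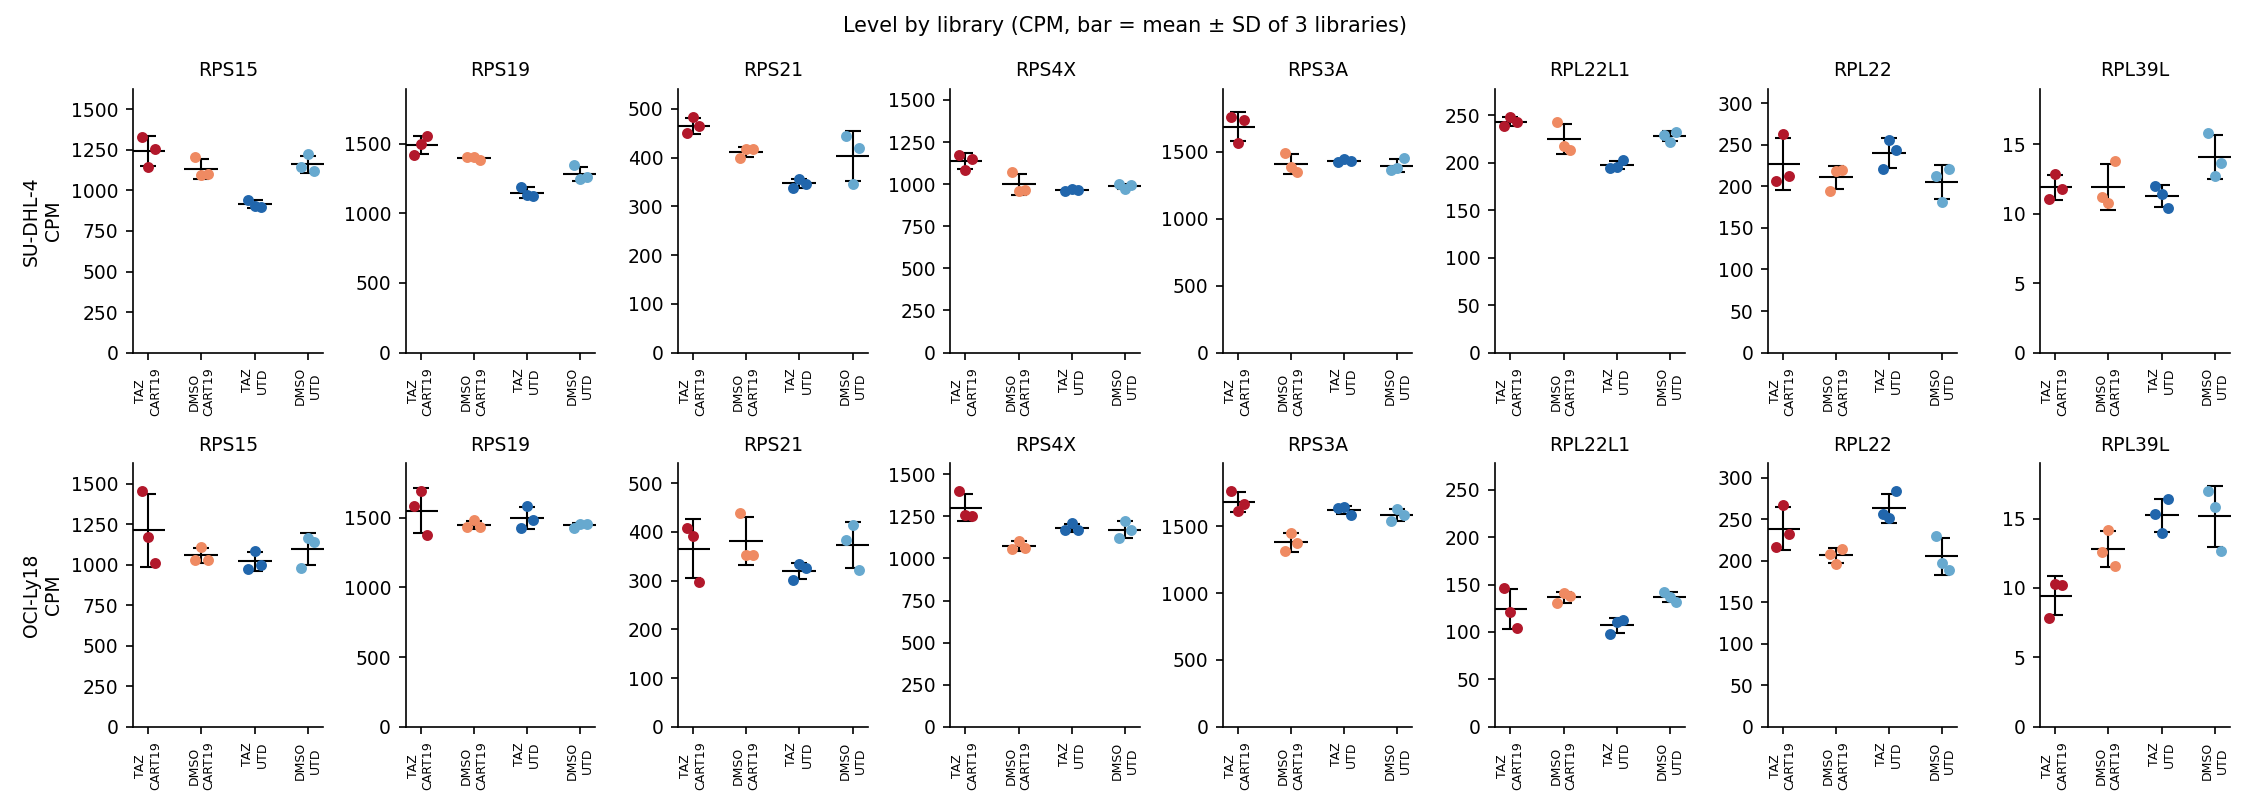
CPM of RPS15, RPS19, RPS21, RPS4X, RPS3A, RPL22L1, RPL22 and RPL39L in each library of SU-DHL-4 and OCI-Ly18, with groups from TAZ CART19 to DMSO UTD. RPS15 in SU-DHL-4 is lowest in TAZ UTD, and RPS4X in OCI-Ly18 is highest in TAZ CART19.

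In OCI-Ly18, tazemetostat against DMSO beside UTD cells raised 8 of 81 members and lowered 2, 9.88% and 2.47%, against 11.6% and 12.7% of all genes. The members' median was 0.03 and that of all genes 0.02. RPL22, an RNA-binding large subunit protein mutated in some lymphoid tumours, was at 256, 251 and 283 CPM in TAZ UTD and 230.1, 197 and 189 CPM in DMSO UTD (log2 fold change 0.30, SE 0.08, adjusted p = 0.011). Its paralogue RPL22L1, whose mRNA is held down by RPL22 in mice, was at 98.3, 110.3 and 113 CPM in TAZ UTD and 142, 137 and 132 CPM in DMSO UTD (log2 fold change -0.41, SE 0.09, adjusted p = 0.00317). The groups did not overlap in either gene, and the pair moved in opposite directions. RPL13 (0.22, adjusted p = 0.036) rose and RPL17 fell (-0.27, adjusted p = 0.031).

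Each of these 10 calls was lost under at least 1 alternative or left-out library. The 8 increases became 0 without DMSO UTD replicate 2, 3 without DMSO UTD replicate 3, 4 without TAZ UTD replicate 2 and 1 without TAZ UTD replicate 3, and RPL22 lost its call without DMSO UTD replicate 2 or TAZ UTD replicate 3 and with trends for length and GC content removed. The 2 decreases became 1 without DMSO UTD replicate 2. RPL22L1 kept its call in every left-out library and lost it with trends for length and GC content removed. With library means removed 2 members were higher and 16 lower.

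Beside CART19 cells in OCI-Ly18, tazemetostat raised 15 of 81 members and lowered 2, 18.5% and 2.47%, against 11% and 10.6% of all genes, with medians of 0.03 and 0.01. All 3 TAZ CART19 libraries lay above all 3 DMSO CART19 libraries for 19 members and for 19.3% of all genes, and below them for 2 members and 14.5% of all genes. RPS3A was at 1759, 1611 and 1668 CPM in TAZ CART19 and 1312, 1451 and 1371 CPM in DMSO CART19 (log2 fold change 0.26, SE 0.04, adjusted p = 3.38e-05). RPS4X was at 1398, 1255 and 1254 CPM in TAZ CART19 and 1054, 1105 and 1061 CPM in DMSO CART19 (log2 fold change 0.25, SE 0.05, adjusted p = 8.73e-05). RPLP0, the base of the stalk, was at 3310.1, 3294 and 3316 CPM in TAZ CART19 and 2833, 2794 and 2860.0 CPM in DMSO CART19 (log2 fold change 0.20, SE 0.04, adjusted p = 0.000281). The groups stood apart in all 3.

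RPL3, at the catalytic centre of the large subunit (0.24), RPL4, at the exit tunnel (0.23), RPL10, which joins late in assembly (0.21), and RPL13A (0.21) rose as well, and with RPS3A, RPS4X and RPLP0 kept their call in every alternative and left-out library. RPL39L fell (log2 fold change -0.47, SE 0.15, adjusted p = 0.0208), at 7.84, 10.3 and 10.2 CPM in TAZ CART19 and 12.6, 14.2 and 11.6 CPM in DMSO CART19, a call lost without DMSO CART19 replicate 2 or TAZ CART19 replicate 1. RPL26L1 fell by 0.40 (adjusted p = 0.0391), a call lost without any CART19 library except TAZ CART19 replicate 2, without TAZ UTD replicate 3 and with trends for length and GC content removed. The count of decreases was 0 without DMSO CART19 replicate 2, 8 without TAZ CART19 replicate 2 and 1 without any other CART19 library or TAZ UTD replicate 3.

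The lines share no library, so their calls can be set beside each other. Of the increases under tazemetostat beside CART19 cells, 12 were called in both lines, 42.9% of the 28 in SU-DHL-4 and 80.0% of the 15 in OCI-Ly18. They include RPS3A, RPS4X, RPS16, RPL3, RPL4, RPL5, RPL13A, RPL15, RPL23 and RPL34. RPL5, a partner of RPL11 in the particle that restrains MDM2, was the only one of that pair among them. In SU-DHL-4 no shared increase kept its call in every alternative and left-out library. With library means removed, RPL3, RPL4, RPL5, RPL13A, RPL15, RPL23 and RPS4X changed sign there. The matching overlap over all genes is not given here. Of the decreases beside UTD cells, RPL17 and RPL22L1 were called in both lines.

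CART19 against UTD cells in OCI-Ly18 moved few members. Under DMSO 0 of 81 were higher and 2 lower, against 6.27% and 4.75% of all genes, by edgeR. Before adjustment 2 were higher and 5 lower, and DESeq2 and limma voom called 0 higher. RPS3A was at 1312, 1451 and 1371 CPM in DMSO CART19 and 1539, 1627 and 1585 CPM in DMSO UTD (log2 fold change -0.17, SE 0.04, adjusted p = 0.00636), and RPL5 fell by 0.14 (adjusted p = 0.0215). Both calls were lost without DMSO CART19 replicate 1 or DMSO UTD replicate 2, leaving 0. RPL5 was also lost with trends for length and GC content removed and without DMSO CART19 replicate 3 or DMSO UTD replicate 3, and 4 members were lower without DMSO UTD replicate 1. With TAZ CART19 replicate 2 or 3 left out, 1 member was higher.

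Under tazemetostat in OCI-Ly18, 6 of 81 members were higher with CART19 cells and 1 was lower, against 8.33% and 5.05% of all genes. The groups did not overlap for 1 member that was higher and 2 that were lower, and for 9.72% and 17.9% of all genes. RPS4X was at 1398, 1255 and 1254 CPM in TAZ CART19 and 1167, 1209.7 and 1169 CPM in TAZ UTD (log2 fold change 0.20, SE 0.05, adjusted p = 0.0019). RPL39L was at 7.84, 10.3 and 10.2 CPM in TAZ CART19 and 15.3, 14 and 16.4 CPM in TAZ UTD (log2 fold change -0.63, SE 0.15, adjusted p = 0.00262), with the groups apart. These calls held in every alternative and left-out library. RPL17 (0.29, adjusted p = 0.0335), RPL30 (0.23, adjusted p = 0.0457) and RPL34 (0.21, adjusted p = 0.0198) lost theirs in 8 or more of them. The 6 increases became 2 without TAZ UTD replicate 1 or 2 or TAZ CART19 replicate 1, 3 without TAZ UTD replicate 3 and 18 without TAZ CART19 replicate 3. The 1 decrease became 2 without DMSO UTD replicate 1 or DMSO CART19 replicate 1, and 4 without TAZ CART19 replicate 2.

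The lines were compared in DMSO UTD, where 30 of 82 members were higher in SU-DHL-4 than in OCI-Ly18 and 14 lower, 36.6% and 17.1%, against 29% and 35.9% of all genes. The members' median log2 difference was 0.12 and that of all genes -0.10. RPS6, the substrate of the S6 kinases, was at 1778, 1579.9 and 1805 CPM in SU-DHL-4 and 5329, 5074 and 4822 CPM in OCI-Ly18 (log2 fold change -1.47, SE 0.06, adjusted p = 3.19e-17). RPL35A, another gene of Diamond-Blackfan anaemia, was at 943, 685 and 887 CPM in SU-DHL-4 and 399, 307 and 298 CPM in OCI-Ly18 (log2 fold change 1.42, SE 0.17, adjusted p = 9.18e-07). RPS6 was far lower and RPL35A higher in each SU-DHL-4 library than in any of OCI-Ly18.

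RPS20 (0.92), RPL22L1 (0.83) and RPL11 (0.79) were also higher in SU-DHL-4, and RPL17 (-0.83), RPL19 (-0.57) and RPS27L (-0.59) lower, in log2. RPL11 was at 1166, 1039 and 1096 CPM in SU-DHL-4 and 804, 611 and 619 CPM in OCI-Ly18, while RPL5 differed by 0.09 on the log2 scale, a difference that turned to -0.06 with upper quartile scaling. RPS14, whose loss marks the myelodysplastic syndrome with a deletion of the long arm of chromosome 5, was higher (0.32), and RPLP0 (-0.36), RPLP1 (-0.28) and RPL38 (-0.39) were lower. RPS27L's difference lost its call with trends for length and GC content removed, and turned to 0.09 with library means removed. RPL17 overlaps the readthrough gene RPL17-C18orf32, and the strand setting of the counting is not given in the sources used here.

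The counts between lines also depended on the scale. Upper quartile scaling moved the median of all genes to -0.24 and gave 21 members higher and 28 lower, with the members' median at -0.03. Taking out the length trend and library means moved it to 0.28 and gave 60 higher and 5 lower, with the members' median at 0.43. On all 3 scales the members' median was above that of all genes. Among all genes 5149 were higher and 6370 lower in the scaling used here, 4294 and 7364 with upper quartile scaling and 7909 and 4466 with library means removed.

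**Figure D4:**
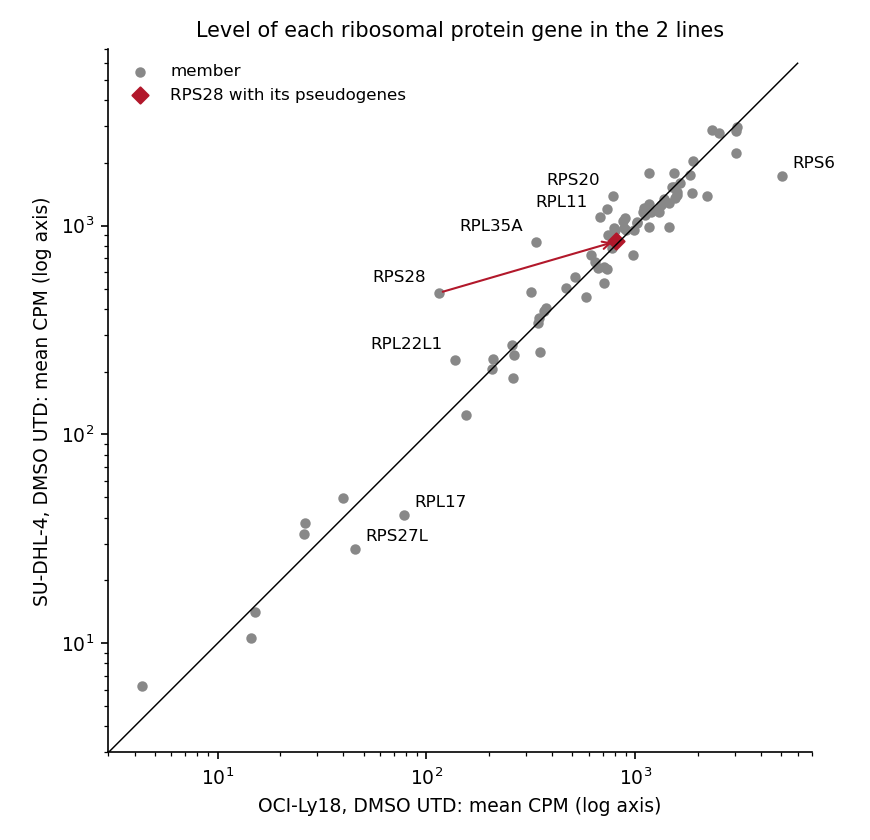
Mean CPM of each ribosomal protein gene in DMSO UTD, SU-DHL-4 against OCI-Ly18, both on log axes with the line of equal levels; the arrow joins RPS28 alone to RPS28 with its pseudogenes. RPS6 lies below the line of equality and RPL35A above it, and RPS28 with pseudogenes falls near it.

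RPS28 had the largest difference between lines of the members outside chromosome Y, and its value depends on near-identical copies. It was at 487, 465 and 477 CPM in SU-DHL-4 and 128, 109.7 and 106 CPM in OCI-Ly18 in DMSO UTD (log2 fold change 2.15, SE 0.07, adjusted p = 7.46e-22). Its pseudogene RPS28P7 took 64.2% of the counts of both, at 358, 386 and 351 CPM in SU-DHL-4 and 612, 764 and 711 CPM in OCI-Ly18. Gene and pseudogene together were at 841 ± 11.3 CPM in SU-DHL-4 and 810 ± 66.8 CPM in OCI-Ly18 (SD, n = 3 each), and the log2 difference of the sum was 0.15 (adjusted p = 0.198). The reads of an mRNA and of such a copy cannot be told apart from these counts.

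The same step bears on the other results for RPS28. In OCI-Ly18 it rose under tazemetostat beside UTD cells (log2 fold change 0.30, SE 0.09, adjusted p = 0.0119), but the sum with the pseudogene had a log2 fold change of -0.05 (adjusted p = 0.824), and the call was also lost with trends for length and GC content removed and without DMSO UTD replicate 2 or 3 or TAZ UTD replicate 3. In SU-DHL-4 the sum also rose: it was higher by 0.31 under tazemetostat beside CART19 cells, by 0.46 with CART19 cells under tazemetostat, and its interaction was 0.47. Beside UTD cells, where the gene alone was not called, the sum fell by 0.16 under tazemetostat (adjusted p = 0.0024). Pseudogenes also took 35.8% of such counts for RPL9, 29.9% for RPL26, 22.4% for RPL7, 15.1% for RPS2 and 14.2% for RPL39. Over all members they took 3.64%.

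The response to tazemetostat beside UTD cells differed between the lines for 4 members, each lower in SU-DHL-4, with 0 the other way, against 3.66% and 6.9% of all genes. They include RPS28 (-0.37, adjusted p = 0.011), RPS19 (-0.20, adjusted p = 0.0463) and RPL10 (-0.16, adjusted p = 0.0476). With its pseudogene RPS28 differed by -0.09 (adjusted p = 0.816). Before adjustment 0 were higher and 10 lower, and DESeq2 and limma voom called 0 higher. Leaving out 1 library moved the 4 by more than 1.5 times in 14 of 24 cases. In SU-DHL-4 the count became 1 without DMSO UTD replicate 1 or TAZ UTD replicate 3, 2 without DMSO UTD replicate 2 or 3 or any DMSO CART19 library, and 7 without TAZ CART19 replicate 1 or 3. In OCI-Ly18 it became 2 without DMSO UTD replicate 1, 9 without TAZ UTD replicate 1 or TAZ CART19 replicate 1 or 3, and 10 without TAZ CART19 replicate 2. For the response to CART19 cells under DMSO, edgeR called 0 members, against 1.19% higher and 1.63% lower of all genes. Before adjustment 3 were higher and 0 lower, and DESeq2 and limma voom called 0 in either direction, while 1 was called higher without OCI-Ly18 DMSO CART19 replicate 2 or TAZ CART19 replicate 2.

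Close paralogues had these levels. Per kilobase of summed exons, RPL22L1 was above RPL22, at 75.2 and 48.0 CPM per kb, and RPL26L1 above RPL26, at 26.4 and 18.4 CPM per kb, where RPL26 shares reads with pseudogenes as stated. Before scaling by length both orders were reversed. Over all libraries RPL22 had 91073 counts and RPL22L1 70582, and RPL26 had 18641 and RPL26L1 12466. These orders therefore depend on the length used. RPL39L was at 12 and RPL39 at 135 CPM per kb, RPL7L1 at 43.3 CPM per kb and RPL3 at 590 CPM per kb. In SU-DHL-4 RPL22L1 was at 239, 248 and 244 CPM in TAZ CART19, 243, 218 and 214 CPM in DMSO CART19, 195, 196 and 203 CPM in TAZ UTD and 229.9, 222 and 232 CPM in DMSO UTD. Its TAZ UTD libraries were the lowest of that line.

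Of the members with a known role outside the ribosome, RPS3, which also acts in DNA repair, was called in none of the 13 comparisons at an adjusted p under 0.05. RPS27A, which is made as a fusion with ubiquitin, was called once, in SU-DHL-4 with CART19 cells under tazemetostat (log2 fold change 0.20). RPS6 was called in the difference between lines alone.

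The mitochondrial ribosome, whose proteins are encoded by 78 other genes of the table, was read beside it under tazemetostat. Beside UTD cells in SU-DHL-4, 0 of 77 of its genes rose and 42 fell with a median of -0.26, and beside CART19 cells 0 rose and 20 fell with a median of -0.14. Of all genes there, 17.2% rose and 18.3% fell beside UTD cells, and 16.1% rose and 18.7% fell beside CART19 cells. In OCI-Ly18, 1 of 78 rose and 22 fell beside UTD cells (median -0.14), and 1 rose and 17 fell beside CART19 cells (median -0.13). Of all genes in that line, 11.6% rose and 12.7% fell beside UTD cells, and 11% rose and 10.6% fell beside CART19 cells. The cytosolic members had 1 rise and 18 falls, 28 and 1, 8 and 2, and 15 and 2 in those 4 comparisons, as given above. MRPL4 of the large mitochondrial subunit, for example, fell by 0.46 in SU-DHL-4 and 0.48 in OCI-Ly18 beside CART19 cells on the log2 scale. With CART19 over UTD cells under tazemetostat in SU-DHL-4, 8 mitochondrial members rose and 0 fell, with a median of 0.12, where 6.66% of all genes rose and 7.86% fell. No test of the difference between both families was made.

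**Figure D5:**
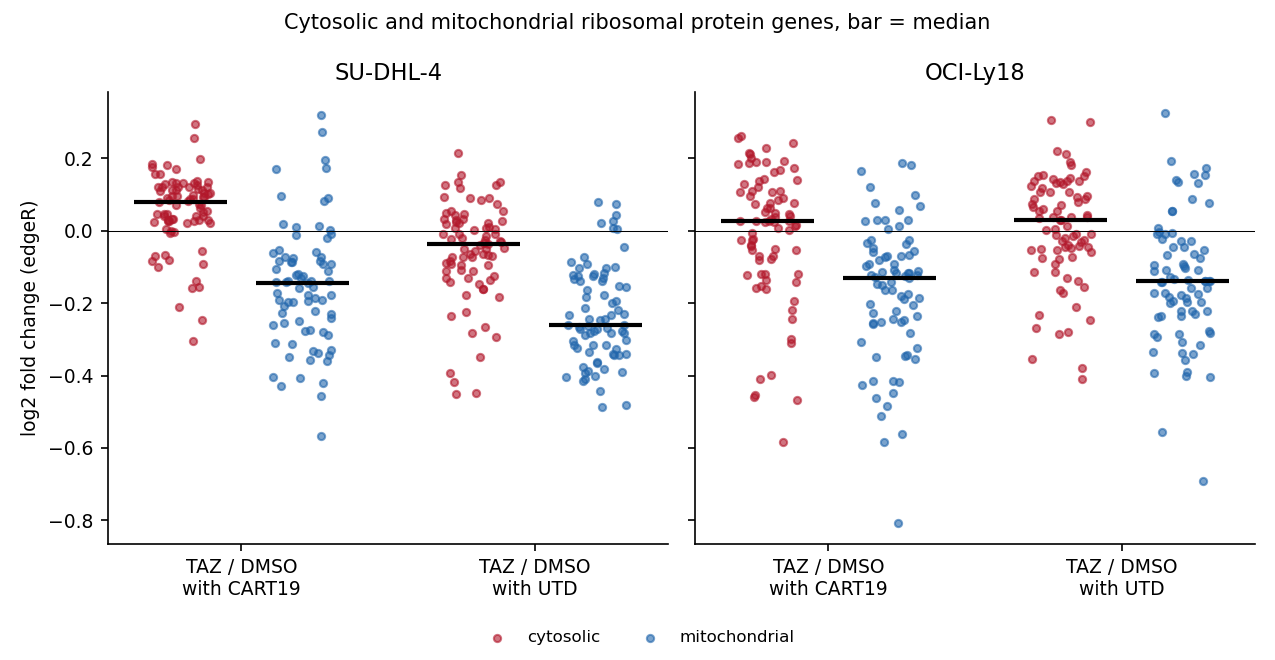
Log2 fold change of tazemetostat over DMSO beside CART19 cells and beside UTD cells for cytosolic and mitochondrial ribosomal protein genes, in each line. In SU-DHL-4 the mitochondrial genes have medians of -0.14 and -0.26, against 0.08 and -0.04 for the cytosolic ones.

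Other genes of the translation machinery were read from lists of known members. The shares of all genes called in SU-DHL-4, beside which the counts of these lists stand, were 6.66% higher and 7.86% lower with CART19 over UTD cells under tazemetostat, 17.2% and 18.3% under tazemetostat beside UTD cells, and 16.1% and 18.7% beside CART19 cells. Of the ribosomal proteins outside the name rule, 3 of 5 rose and 0 fell with CART19 over UTD cells under tazemetostat in SU-DHL-4, FAU (log2 fold change 0.39) and RPSA (0.13) among them. FAU fell by 0.38 under tazemetostat beside UTD cells there, and RPSA rose by 0.12 beside CART19 cells. Elongation factors and other mRNAs with TOP starts had 6 rises and 1 fall of 16 in the first of these comparisons, among them BTF3 (0.22), TPT1 (0.19) and EIF4B (-0.16). They had 3 rises and 4 falls under tazemetostat beside UTD cells, and 4 rises, EIF3L (0.22) among them, and 0 falls beside CART19 cells.

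Initiation factors, 27 in the list, had 1 rise and 14 falls (3.7% and 51.9%) under tazemetostat beside UTD cells in SU-DHL-4, against 17.2% and 18.3% of all genes, and 1 rise and 11 falls (3.7% and 40.7%) beside CART19 cells, against 16.1% and 18.7%. EIF4E, which binds the mRNA cap, fell by 0.47 and 0.36 in these. With CART19 over UTD cells under tazemetostat 5 rose and 2 fell (18.5% and 7.41%, against 6.66% and 7.86% of all genes), EIF4G1, the scaffold of the cap complex, among those that fell, by 0.24. Assembly factors and chaperones of ribosomal proteins had 1 rise and 13 falls of 23 (4.35% and 56.5%) beside UTD cells, 1 and 9 (4.35% and 39.1%) beside CART19 cells and 1 and 2 (4.35% and 8.7%) with CART19 over UTD cells under tazemetostat. TSR2, the carrier of RPS26, fell by 0.47 and 0.35 under tazemetostat. The list of assembly factors shares NACA, BTF3 and NAP1L1 with the list of TOP mRNAs and EIF6 with the initiation factors. It also holds SYVN1, which is not such a factor. The counts of these lists are therefore not separate.

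Of the 18 genes of mTORC1 and LARP1, 6 rose and 4 fell under tazemetostat beside UTD cells in SU-DHL-4, and 5 rose and 6 fell beside CART19 cells. These shares are 33.3% and 22.2% beside UTD cells, against 17.2% and 18.3% of all genes, and 27.8% and 33.3% beside CART19 cells, against 16.1% and 18.7%. SESN1, a p53 target that restrains mTORC1, rose by 2.03 and 2.08 on the log2 scale. With CART19 over UTD cells under tazemetostat 1 rose and 6 fell (5.56% and 33.3%, against 6.66% and 7.86% of all genes), LARP1, which binds TOP mRNAs, by 0.31 and EIF4EBP2 by 0.26. In the list of p53 surveillance genes, 12 tested, 5 rose and 2 fell beside UTD cells (41.7% and 16.7%, against 17.2% and 18.3% of all genes), CDKN1A by 1.47 upwards, and 8 rose and 0 fell beside CART19 cells (66.7% and 0%, against 16.1% and 18.7%), CDKN1A again (1.21). This list is not separate from the others, as it holds the members RPL5, RPL11 and RPS27L and also SESN1. RPL5 is among its rises beside CART19 cells and RPS27L among its falls beside UTD cells. Host genes of small nucleolar RNAs with TOP starts had 3 rises, SNHG6 (0.45) among them, and 1 fall of 11 (27.3% and 9.09%, against 6.66% and 7.86% of all genes) with CART19 over UTD cells under tazemetostat.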

How the data were processed

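The authors deposited a table of raw read counts per gene, with gene names and biotypes, for 24 libraries of total RNA. The build is hg38 and DESeq2 was used, per the submitters' processing notes. The aligner, the counter and the strand option were not given in the sources used here, and without strand reads from a gene and its antisense partner cannot be separated. No row lacked a gene (0 rows) and 0 columns of other samples were present.

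Counts were tested with edgeR 4.0.16 in R 4.3.3 (TMM factors, filterByExpr, robust quasi-likelihood F test, adjusted by Benjamini-Hochberg over all genes tested). Each line was fitted with its 12 libraries (16467 genes in OCI-Ly18, 14861 in SU-DHL-4), and the lines were compared in a fit of 24 libraries (17766 genes). SE is the log2 fold change divided by the square root of F. Libraries of 14783781 to 20148891 counts limit the precision of genes below a few CPM. Alternatives were DESeq2 1.42.0, limma 3.58.1 with voom, other scalings and filters, trends for length and GC content, pseudogene counts added, other sets of libraries, a replicate block and each library left out. The code was tested on simulated data. Samples were grouped by their titles in the labels.

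The family and the gene lists were chosen for description with earlier results of these data known, and the rule that finds the members uses names and annotation. Genes named are the 4 largest called increases and decreases of each comparison, close paralogues, members with a role of their own, extremes of level and spread, and up to 4 genes of each list; others were named after their values were seen. Gene length and transcripts come from GENCODE 29. Pseudogenes were matched to members by symbol. Some items are not reported here.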

Additional observations from a re-analysis of the deposited data

Results flagged for a closer look

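The following members had effects that differed between settings by a test of the difference itself, edgeR's quasi-likelihood test adjusted by Benjamini-Hochberg over all genes, with 3 libraries per group. In SU-DHL-4 the tazemetostat effect beside CART19 cells exceeded that beside UTD cells, in log2, by 0.49 for RPS15, 0.41 for RPS21, 0.38 for RPS28, 0.33 for RPL22L1, 0.30 each for RPS26, RPL38 and RPS16 and 0.29 for RPS13. The difference was 0.27 for RPS27, 0.26 for RPS19, 0.25 for RPL28, 0.24 for RPS3A, 0.23 for RPS4X and 0.22 each for RPL23 and RPL4. Of these calls, only that of RPS16 held in every alternative and left-out library.

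In OCI-Ly18 the same difference was 0.30 for RPS4X and 0.29 for RPS3A. Neither call held in every alternative and left-out library.

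The response to tazemetostat beside UTD cells was lower in SU-DHL-4 than in OCI-Ly18, with a log2 difference of -0.37 for RPS28, -0.20 for RPS19 and -0.16 for RPL10. The RPS28 difference was -0.09 once its pseudogene was counted with it. No call of this line difference held in every alternative and left-out library.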

How the results depend on the processing

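Most counts of called members stayed within 1.5 times the reported count under the alternatives; those that did not are given by setting. Where no cause is stated, the cause was not tested. Upper quartile scaling gave members called higher as 2 in CART19 over UTD cells under tazemetostat in OCI-Ly18, 6 in tazemetostat over DMSO beside UTD cells in SU-DHL-4 and 43 in tazemetostat over DMSO beside CART19 cells in SU-DHL-4. Also higher were 0 in CART19 over UTD cells under DMSO in SU-DHL-4. Lower were 1 in tazemetostat over DMSO beside UTD cells in OCI-Ly18, 2 in CART19 over UTD cells under tazemetostat in OCI-Ly18 and 7 in tazemetostat over DMSO beside UTD cells in SU-DHL-4. Also lower were 0 in tazemetostat over DMSO beside CART19 cells in SU-DHL-4, 28 in SU-DHL-4 over OCI-Ly18 and 2 in the line difference in the tazemetostat response. RLE scaling gave members called higher as 1 in CART19 over UTD cells under DMSO in SU-DHL-4. TMM factors made without the members gave members called higher as 1 in CART19 over UTD cells under DMSO in SU-DHL-4. Lower were 0 in CART19 over UTD cells under tazemetostat in SU-DHL-4 and 7 in the line difference in the tazemetostat response. Leaving out the filter on low counts gave members called higher as 2 in CART19 over UTD cells under DMSO in OCI-Ly18, 12 in CART19 over UTD cells under tazemetostat in OCI-Ly18 and 4 in the interaction in OCI-Ly18. Also higher were 2 in tazemetostat over DMSO beside UTD cells in SU-DHL-4. Lower were 4 in tazemetostat over DMSO beside UTD cells in OCI-Ly18, 2 in CART19 over UTD cells under tazemetostat in OCI-Ly18 and 0 in CART19 over UTD cells under tazemetostat in SU-DHL-4. Also lower were 9 in the line difference in the tazemetostat response. A stricter filter gave members called higher as 1 in the line difference in the CART19 response. Lower were 11 in tazemetostat over DMSO beside UTD cells in SU-DHL-4 and 7 in the line difference in the tazemetostat response. DESeq2 gave members called higher as 4 in the interaction in OCI-Ly18, 1 in CART19 over UTD cells under DMSO in SU-DHL-4 and 23 in the interaction in SU-DHL-4. limma voom gave members called higher as 12 in CART19 over UTD cells under tazemetostat in OCI-Ly18. Lower were 5 in tazemetostat over DMSO beside CART19 cells in OCI-Ly18. Removing a length trend gave members called higher as 2 in tazemetostat over DMSO beside UTD cells in SU-DHL-4. Lower were 0 in CART19 over UTD cells under tazemetostat in SU-DHL-4 and 1 in the line difference in the tazemetostat response. Removing length and GC trends gave members called higher as 4 in tazemetostat over DMSO beside UTD cells in OCI-Ly18, 1 in the interaction in OCI-Ly18 and 5 in tazemetostat over DMSO beside UTD cells in SU-DHL-4. Also higher were 1 in CART19 over UTD cells under DMSO in SU-DHL-4. Lower were 1 in tazemetostat over DMSO beside UTD cells in OCI-Ly18, 1 in tazemetostat over DMSO beside CART19 cells in OCI-Ly18 and 2 in tazemetostat over DMSO beside CART19 cells in SU-DHL-4. Also lower were 0 in CART19 over UTD cells under tazemetostat in SU-DHL-4 and 1 in the line difference in the tazemetostat response. Removing the length trend with library means gave members called higher as 2 in tazemetostat over DMSO beside UTD cells in OCI-Ly18, 9 in tazemetostat over DMSO beside CART19 cells in OCI-Ly18 and 12 in CART19 over UTD cells under tazemetostat in OCI-Ly18. Also higher were 4 in the interaction in OCI-Ly18, 0 in tazemetostat over DMSO beside UTD cells in SU-DHL-4 and 2 in tazemetostat over DMSO beside CART19 cells in SU-DHL-4. Also higher were 0 in CART19 over UTD cells under DMSO in SU-DHL-4 and 60 in SU-DHL-4 over OCI-Ly18. Lower were 16 in tazemetostat over DMSO beside UTD cells in OCI-Ly18, 4 in CART19 over UTD cells under DMSO in OCI-Ly18 and 56 in tazemetostat over DMSO beside UTD cells in SU-DHL-4. Also lower were 8 in tazemetostat over DMSO beside CART19 cells in SU-DHL-4, 0 in CART19 over UTD cells under tazemetostat in SU-DHL-4 and 5 in SU-DHL-4 over OCI-Ly18. Also lower were 12 in the line difference in the tazemetostat response. Adding pseudogene counts gave members called higher as 1 in CART19 over UTD cells under DMSO in SU-DHL-4. Lower were 0 in CART19 over UTD cells under tazemetostat in SU-DHL-4 and 2 in the line difference in the tazemetostat response. The fit of all 24 libraries gave members called higher as 5 in the interaction in OCI-Ly18, 0 in CART19 over UTD cells under DMSO in SU-DHL-4 and 1 in the interaction in SU-DHL-4. Lower were 2 in CART19 over UTD cells under tazemetostat in OCI-Ly18, 8 in tazemetostat over DMSO beside UTD cells in SU-DHL-4 and 0 in tazemetostat over DMSO beside CART19 cells in SU-DHL-4. Fitting only the groups compared gave members called higher as 14 in tazemetostat over DMSO beside UTD cells in OCI-Ly18, 5 in CART19 over UTD cells under DMSO in OCI-Ly18 and 2 in CART19 over UTD cells under tazemetostat in OCI-Ly18. Also higher were 3 in tazemetostat over DMSO beside UTD cells in SU-DHL-4 and 5 in CART19 over UTD cells under DMSO in SU-DHL-4. Lower were 8 in tazemetostat over DMSO beside UTD cells in OCI-Ly18, 5 in CART19 over UTD cells under DMSO in OCI-Ly18 and 2 in CART19 over UTD cells under tazemetostat in OCI-Ly18. Also lower were 0 in CART19 over UTD cells under tazemetostat in SU-DHL-4.

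The labels do not say whether the replicate numbers pair the libraries, and a replicate block was fitted as an alternative. The 36 correlations of deviations between libraries of the same number lay between -0.0595 and 0.0435, with 0 over 0.1 in each line. Such low values cannot show that the libraries are unpaired. The fit with the replicate number as a block gave members called higher as 0 in the interaction in OCI-Ly18 and 1 in CART19 over UTD cells under DMSO in SU-DHL-4. Lower were 2 in the line difference in the tazemetostat response. No other count moved by over 1.5 times with the block.

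Scaling by TMM effective library size moved the summed level to 85321 CPM in SU-DHL-4 DMSO CART19 and 82058 CPM in OCI-Ly18 TAZ UTD, by more than 1 SD of their replicates.

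With 1 library left out at a time, members called were 0 to 2 higher and 10 to 24 lower in tazemetostat over DMSO beside UTD cells in SU-DHL-4, 0 to 11 higher and 1 to 3 lower in tazemetostat over DMSO beside UTD cells in OCI-Ly18 and 19 to 36 higher and 0 to 6 lower in tazemetostat over DMSO beside CART19 cells in SU-DHL-4. They were 10 to 21 higher and 0 to 8 lower in tazemetostat over DMSO beside CART19 cells in OCI-Ly18, 0 to 6 higher and 0 to 0 lower in CART19 over UTD cells under DMSO in SU-DHL-4 and 0 to 1 higher and 0 to 4 lower in CART19 over UTD cells under DMSO in OCI-Ly18. They were 40 to 53 higher and 0 to 1 lower in CART19 over UTD cells under tazemetostat in SU-DHL-4, 2 to 18 higher and 1 to 4 lower in CART19 over UTD cells under tazemetostat in OCI-Ly18 and 7 to 20 higher and 0 to 1 lower in the interaction in SU-DHL-4. They were 0 to 6 higher and 0 to 2 lower in the interaction in OCI-Ly18, 25 to 34 higher and 10 to 17 lower in SU-DHL-4 over OCI-Ly18 and 0 to 0 higher and 1 to 10 lower in the line difference in the tazemetostat response. They were 0 to 1 higher and 0 to 0 lower in the line difference in the CART19 response.

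Signs of called members turned as follows, in log2. With pseudogenes added RPS28 was -0.052 for tazemetostat over DMSO beside UTD cells in OCI-Ly18. Between lines, RPL5 was -0.056 with upper quartile scaling and -0.047 with the length trend removed. RPL15 was 0.097 with the length trend removed, 0.31 with length and GC trends removed and 0.48 with library means removed. With length and GC trends removed RPL35 was -0.33 and RPS9 -0.031. With library means removed RPL31 and RPS24 were 0.13, RPS27L 0.087 and RPS4X 0.060. Within SU-DHL-4, library means removed turned RPL7A to -0.016 beside UTD cells. Beside CART19 cells they turned RPL13A to -0.030, RPL29 to -0.027, RPL7A to -0.024, RPL4 to -0.022, RPL3, RPL13 and RPL15 to -0.020, and RPS26 to -0.019. RPL37A was at -0.0096, RPL23 at -0.0085, RPL5 at -0.0044 and RPS4X at -0.00035. The trends for GC content, the pseudogene counts and the removal of library means were chosen after seeing the data. The planned length trend was first run with library means removed, which replaces TMM by the mean log value of each library, and the form that keeps TMM took its place after that result was seen.

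Limits: groups of 3 libraries whose independence the labels do not state, 1 model per line, gene counts with an unstated strand setting, and near-identical pseudogenes limit single members. The depth limits members near 1 CPM, such as RPL3L.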
